A study of Homo sapiens with 2 samples.

Results

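APOBEC1, APOBEC3A, APOBEC3B, APOBEC3C, APOBEC3F, APOBEC3G, ADAR, ADARB1 and UNG are 9 genes chosen by name as cytidine deaminases, adenosine deaminases and the uracil glycosylase UNG. Every probe set annotated with exactly 1 gene symbol, where that symbol was one of these, was taken, which gave 11 probe sets for 8 of the 9 genes among 29493 such probe sets of 16716 genes. APOBEC3A had no such probe set. The measurements were messenger RNA signals of a human lymphoblastoid cell line, which is a culture of B cells made immortal by infection with Epstein-Barr virus. The sample titles spell the line GM06690 and the growth protocol GM06990. Both samples belong to 1 untreated group, as replicates 1 and 2, with RNA of each hybridised to its own Affymetrix Human Genome U133 Plus 2.0 array. No second condition was measured, so the replicates and a background level are what each signal could be compared with. Whether the replicates were separate cultures is not stated in the labels, so their spread may be technical.

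Cytidine deaminases of the APOBEC family remove the amino group of cytosine in single-stranded DNA or in RNA, which leaves uracil. In B cells, uracil in the immunoglobulin genes starts somatic hypermutation and class switching. The APOBEC3 proteins, encoded side by side on chromosome 22, edit the DNA of retroviruses and retroelements and can also mutate the cell's own genome. UNG cuts uracil out of DNA and so opens base excision repair. The ADAR enzymes act on another base, turning adenosine into inosine in RNA duplexes, which alters codons and keeps the cell's own RNA from being sensed as viral.

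RefSeq promoter windows on GRCh38.p14 were at hand for 4 of these genes, 10 windows in all. Part of them is shown, because they differ widely in CpG content. That feature went with the calls over the measured genes that had a window. Each window below is the 250 bases before an annotated transcript start, 5′ to 3′ on the gene's strand. Capitals mark GGGCGG, the core of the SP1 site, or TATAAA, the core of the TATA box, on either strand.
ADAR, chr1:154627998-154628247, minus strand: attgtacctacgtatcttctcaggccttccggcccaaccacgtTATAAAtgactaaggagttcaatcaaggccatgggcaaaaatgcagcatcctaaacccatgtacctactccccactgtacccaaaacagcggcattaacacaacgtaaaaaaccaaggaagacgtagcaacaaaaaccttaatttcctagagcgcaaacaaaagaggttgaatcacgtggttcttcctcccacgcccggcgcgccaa
ADAR, chr1:154608798-154609047, minus strand: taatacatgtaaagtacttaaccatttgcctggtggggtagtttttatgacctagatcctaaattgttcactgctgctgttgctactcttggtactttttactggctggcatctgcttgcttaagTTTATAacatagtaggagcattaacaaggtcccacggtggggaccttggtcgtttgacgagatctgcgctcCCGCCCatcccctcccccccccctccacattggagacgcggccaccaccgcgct
UNG, chr12:109097347-109097596, plus strand: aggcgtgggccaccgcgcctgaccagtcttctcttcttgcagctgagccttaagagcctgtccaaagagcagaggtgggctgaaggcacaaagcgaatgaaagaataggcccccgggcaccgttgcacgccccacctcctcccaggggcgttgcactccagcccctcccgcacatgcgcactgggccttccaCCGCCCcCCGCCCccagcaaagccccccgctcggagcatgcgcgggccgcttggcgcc
UNG, chr12:109097922-109098171, plus strand: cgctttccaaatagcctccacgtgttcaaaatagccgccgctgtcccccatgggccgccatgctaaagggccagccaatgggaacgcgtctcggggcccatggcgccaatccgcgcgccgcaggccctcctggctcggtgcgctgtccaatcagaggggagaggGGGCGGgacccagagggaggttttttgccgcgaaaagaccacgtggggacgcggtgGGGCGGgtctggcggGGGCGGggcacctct
APOBEC1, chr12:7665909-7666158, minus strand: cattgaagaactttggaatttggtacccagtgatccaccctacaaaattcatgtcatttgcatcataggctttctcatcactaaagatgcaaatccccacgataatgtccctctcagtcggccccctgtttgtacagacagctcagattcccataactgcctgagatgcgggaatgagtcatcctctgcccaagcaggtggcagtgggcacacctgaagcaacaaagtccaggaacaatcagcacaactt
ADARB1, chr21:45074328-45074577, plus strand: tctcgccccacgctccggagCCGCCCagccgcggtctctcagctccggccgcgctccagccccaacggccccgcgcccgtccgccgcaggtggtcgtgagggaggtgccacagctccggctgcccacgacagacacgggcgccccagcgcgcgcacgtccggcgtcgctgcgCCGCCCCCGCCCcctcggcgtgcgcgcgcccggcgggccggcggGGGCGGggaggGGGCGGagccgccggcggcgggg

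The first ADAR window held 12 CpG dinucleotides, a ratio of observed to expected CpG of 0.92, and the second one shown, before a start within the gene, held 9 at a ratio of 0.58. The UNG windows, which precede the separate starts of this gene, held 18 and 24 CpG with ratios of 0.64 and 0.84. The APOBEC1 window held 3, with a ratio of 0.22. The ADARB1 window shown held 45, with a ratio of 1.03, and 99.4% of all 35116 windows held fewer. The ADARB1 windows not shown held 45, 42 and 12, with ratios of 1.03, 1.02 and 0.60. The first of these largely overlaps the ADARB1 window shown, so its counts repeat the same letters. The ADAR window not shown likewise largely overlaps the first ADAR window. GGGCGG occurred 5 times in the ADARB1 window shown and 2 and 3 times in the UNG windows. It occurred 1 time in the second ADAR window shown and not in that of APOBEC1. The ADARB1 windows not shown held it 5 times, 2 times and not at all. Of all windows 42.6% held it. TATAAA was found in both ADAR windows shown, 202 to 207 bases and 120 to 125 bases before the start, and in 10.7% of all windows. None of the 10 windows of these genes held GAAANNGAA, the core of the interferon-stimulated response element, TTCNNNGAA, the gamma-activated site, GGGANTTTC, part of an NF-kB site, or TTCCCGCC, an E2F site, which were in 6.88%, 6.57%, 1.12% and 2.72% of all windows. All motifs were searched on both strands, and such matches describe letters only.

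Signals are on the log2 RMA scale, and a value printed with an error is the mean ± SD over both arrays (n = 2). The background level was the 95th percentile, on each array, of 66 measured genes known from single organs such as liver, pancreas, brain or muscle, and it was 5.34 in replicate 1 and 5.12 in replicate 2. Of those 66 genes CPS1 (5.58 ± 0.18), MBP (10.33 ± 0.043) and PRL (5.69 ± 0.012) exceeded it on both arrays, and AHSG (3.82 ± 0.36), APOC3 (3.76 ± 0.014) and APOH (4.26 ± 0.20), for example, did not. A gene was represented by its brightest probe set and counted as above background where it exceeded the level on both arrays, as 9250 of 16716 genes did (55.3%). Of the 8 measured deaminase and UNG genes 6 were above background, namely APOBEC3B, APOBEC3C, APOBEC3F, APOBEC3G, ADAR and UNG, and APOBEC1 and ADARB1 were not. Of the 11 probe sets 7 were above it, against 51% of the 29493 probe sets with 1 symbol. The median of the 8 genes was 10.27, against 6.10 over all genes. With a list this short and chosen by name, the count is given as a description. Probe sets differ in how well they bind, so the signals of different genes are not ranked.

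**Figure D1:**
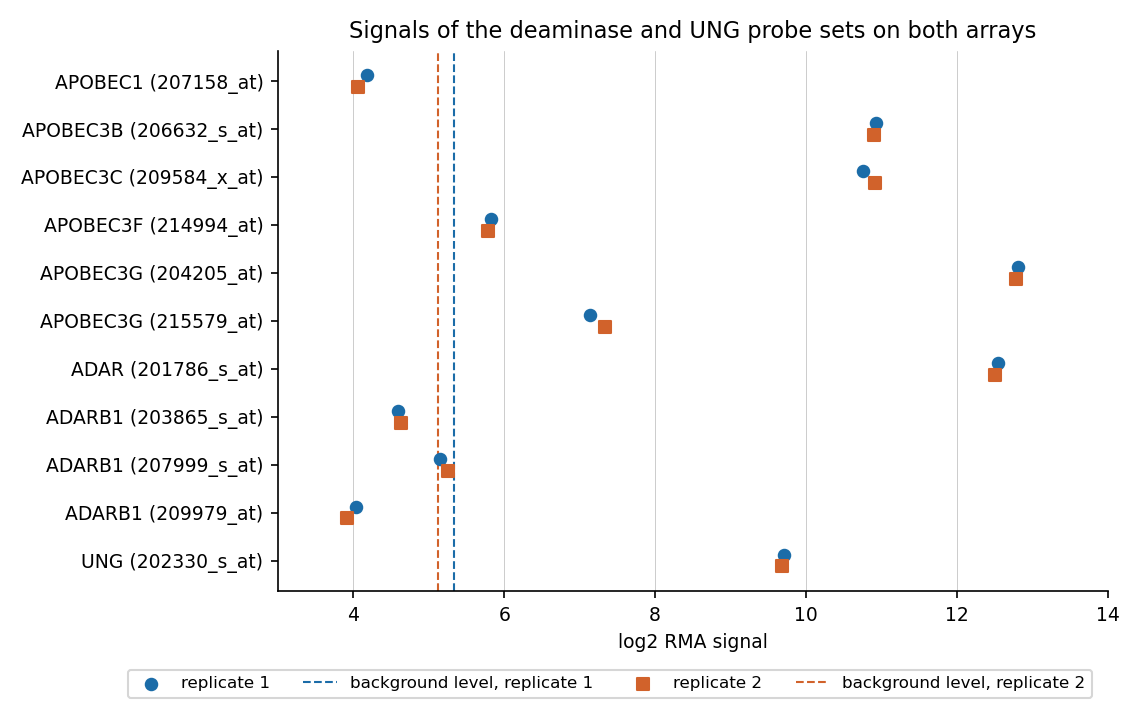
Signals of the 11 probe sets of the deaminases and UNG on the horizontal axis (log2 RMA signal), with replicate 1 as circles, replicate 2 as squares and the background level of each array as a dashed line. The replicates lie close together in every row; APOBEC3F is 0.48 and 0.66 above the levels, and ADARB1 207999_s_at lies between them.

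APOBEC3G is a deaminase that is packaged into HIV particles lacking the viral protein Vif. By probe set 204205_at its signals were 12.81 in replicate 1 and 12.79 in replicate 2. Both lay more than 7 log2 units above the levels, by 7.47 and 7.67. Its other probe set, 215579_at, gave 7.14 and 7.33, also above background on both arrays. The probe sets of this gene were 5.57 apart on the log2 scale, and 91.2% of the 7350 genes with at least 2 probe sets had a smaller span (median 1.43). Both probe sets were above background at the 95th percentile of the tissue-restricted genes, and 215579_at was not at the 99th percentile (levels of 7.31 and 7.33).

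APOBEC3B, a nuclear deaminase known for the mutations it leaves in tumour genomes, had signals of 10.93 and 10.90, which exceeded the levels by 5.60 and 5.78. APOBEC3C, a deaminase with a single catalytic domain, had 10.75 and 10.91, or 5.41 and 5.79 above. Each of these genes had 1 probe set, APOBEC3B one ending in _s_at and APOBEC3C one ending in _x_at. These endings mark probe sets whose probes can match more than 1 transcript, and the APOBEC3 genes are closely related in sequence, so the part of relatives in the signals was not tested.

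APOBEC3F, a partner of APOBEC3G in the restriction of retroviruses, had signals of 5.82 and 5.78 by its 1 probe set, 0.48 and 0.66 above the levels. Of the 6 chosen genes above background it had the smallest margin, and the replicates differed by 0.04. At that 99th percentile it was not above background. That level rested on 1 gene, MBP, a myelin gene whose signal was 10.33 ± 0.043; without MBP, an alternative chosen after seeing the data, the 99th percentile was 5.54 and 5.69 and APOBEC3F was above it. A further probe set was annotated to APOBEC3F and APOBEC3G together and names neither here, and the same holds for the probe set annotated to APOBEC3A together with APOBEC3A_B.

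The measured APOBEC3 genes follow each other on chromosome 22 in the order APOBEC3B, APOBEC3C, APOBEC3D, APOBEC3F and APOBEC3G, and all of them were above background on both arrays. APOBEC3D, which lies between APOBEC3C and APOBEC3F and was not among the chosen genes, had 5.38 and 5.34, which is close to the level, and it was not above the 99th percentile with or without MBP. Among the 5 measured genes before the cluster, GTPBP1, SUN2, DNAL4 and CBX6 were above background and NPTXR was not. Among the 5 after it CBX7 and RPL3 were above, and PDGFB, SYNGR1 and TAB1 were not. Both sides of the cluster thus held genes with and without the call. Of those without it, SYNGR1 (5.32 and 5.27) and TAB1 (5.28 and 5.17) lay just under the level in replicate 1 and over it in replicate 2. The flanking Polycomb genes CBX6 and CBX7 had 10.21 ± 0.089 and 7.02 ± 0.079.

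**Figure D2:**
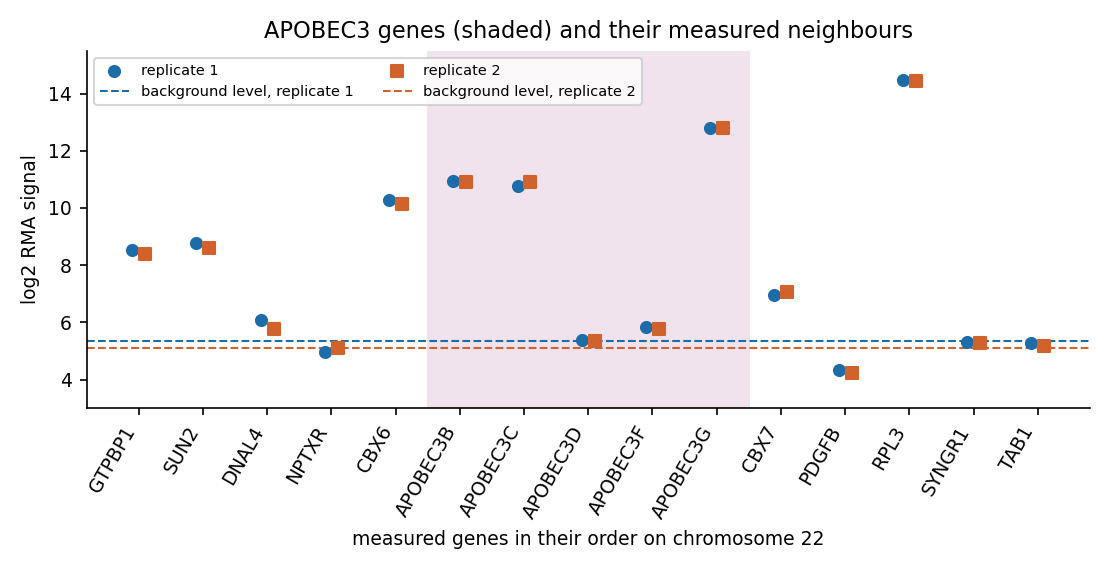
Signals (vertical axis, log2 RMA signal) of the measured APOBEC3 genes and of 5 measured genes on each side, in their order on chromosome 22, with each replicate as a point and its background level as a dashed line. APOBEC3B, APOBEC3C and APOBEC3G lie far above the levels, APOBEC3D and APOBEC3F just above them.

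APOBEC1, the deaminase that edits the messenger of apolipoprotein B in the human intestine, had signals of 4.18 and 4.06, 1.16 and 1.06 below the levels. It was not above background under any of the 12 settings run. Of its RNA-binding cofactors, A1CF (4.10 ± 0.15) was not above background, whereas RBM47 (9.89 ± 0.0031) and SYNCRIP (12.51 ± 0.061), which is expressed in many tissues, were. Among markers of intestinal and liver epithelium, 1 of 12 was above background, the transcription factor CDX1 (6.72 ± 0.14). The first members of that list, VIL1 (4.46 ± 0.093), FABP1 (3.43 ± 0.11) and FABP2 (3.79 ± 0.031), were not.

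ADAR, the broadly expressed editing enzyme whose long isoform is induced by interferon, had signals of 12.54 and 12.50, 7.20 and 7.38 above the levels. Its 1 probe set does not separate the isoforms here. ADARB1, the editing enzyme known for recoding a glutamate receptor in the brain, was measured by 3 probe sets, none of them above background on both arrays. By 207999_s_at it had 5.15 and 5.25, under the level in replicate 1 and over it in replicate 2. By 203865_s_at it had 4.59 and 4.63, and by 209979_at 4.03 and 3.91, below the level on both arrays. ADARB1 was counted as above background in 4 of 12 settings, namely in replicate 2 alone, at the 75th percentile, with olfactory receptor genes as background and, added after seeing the data, without MBP at the 95th percentile.

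Further adenosine deaminases were measured for 4 of 8 listed genes, of which 3 were above background. ADAT1 (8.60 ± 0.054) and ADAT3 (7.68 ± 0.063), which edit transfer RNA, and ADA (11.63 ± 0.021), which deaminates free adenosine, were above. The brain enzyme ADARB2 (3.69 ± 0.074) was not. The other ADAT3 probe set (4.45) was not above background, and both ADA probe sets were.

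Further cytidine deaminases were measured for 5 of 7 listed genes, and 3 were above background. DCTD (10.54 ± 0.059), the dCMP deaminase that feeds thymidylate synthesis, was above by 3 of 3 probe sets, and CDADC1 (7.50 ± 0.069) by 1 of 2. APOBEC3D is described above. APOBEC4 (4.35 ± 0.15) and CDA (4.10 ± 0.091), which deaminates free cytidine, were not above background.

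UNG had signals of 9.71 and 9.69, which were 4.38 and 4.57 above the levels. It was measured by 1 probe set, which does not separate here the nuclear form, made from one transcript start, from the mitochondrial form made from another. All 3 of the other glycosylases that remove uracil or thymine opposite guanine were above background: SMUG1 (7.11 ± 0.017), TDG (10.97 ± 0.071) and MBD4 (11.35 ± 0.0034). Every probe set of these glycosylases was above background, 2 of 2 for SMUG1, 2 of 2 for TDG and 4 of 4 for MBD4.

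The steps that follow a glycosylase were above background in 11 of 11 measured genes. They included the abasic endonucleases APEX1 (12.64 ± 0.012) and APEX2 (8.25 ± 0.063) and the gap-filling polymerase POLB (10.35 ± 0.013). Mismatch repair, which handles U:G pairs in hypermutating B cells by another route, had 5 of 5 measured genes above, among them MSH6 (11.29 ± 0.0083), the exonuclease EXO1 (9.27 ± 0.018) and the translesion polymerase POLH (8.10 ± 0.047). Genes that set the dUTP and dTTP pools were above in 7 of 7 cases, including DUT (13.03 ± 0.031), which destroys dUTP, TYMS (13.33 ± 0.028), which makes dTMP, and RRM1 (12.09 ± 0.017), a ribonucleotide reductase subunit. Over these 4 uracil repair and pool lists 26 of 26 measured genes were above background, where 55.3% of all genes were. These lists hold many genes of dividing cells, and the part of that in the count was not tested.

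Genes with known roles in switch recombination were above background in 12 of 12 cases. SUPT5H (7.47 ± 0.18) is a transcription elongation factor, CTNNBL1 (10.08 ± 0.0072) a splicing-associated protein and RPA1 (12.28 ± 0.012) a single-stranded DNA binding protein.

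Genes that act beside the APOBEC3 and ADAR enzymes in the interferon response were nearly all above background, 26 of 27 over 3 lists. The interferon-stimulated list had 10 of 10, including ISG15 (12.22 ± 0.028), MX1 (12.43 ± 0.043) and MX2 (9.48 ± 0.11). The list of other factors that restrict retroviruses or related viruses had 8 of 8, including TRIM5 (9.42 ± 0.038), TRIM22 (12.14 ± 0.026) and BST2 (11.20 ± 0.0018). The sensors and effectors of RNA duplexes had 8 of 9, including IFIH1 (10.44 ± 0.16), RIGI (8.28 ± 0.21) and DHX58 (5.87 ± 0.27). ZBP1 (4.97 ± 0.28) was not above background.

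Markers of other cell types were counted too, since monocytes, T cells and NK cells also express APOBEC3 genes. Both samples came from 1 lymphoblastoid line, and whether other cells were present was not tested. The B-cell markers were above background in 9 of 9 measured cases, among them MS4A1 (13.19 ± 0.10), CD79A (11.30 ± 0.031) and CD79B (9.59 ± 0.049). Over 4 lists of other cell types 5 of 38 genes were above background. CD28 (5.40 ± 0.29) was the 1 of 8 T-cell markers above, and CD3D (4.94 ± 0.21), CD3E (4.49 ± 0.037) and CD3G (4.50 ± 0.094) were not. PRF1 (5.74 ± 0.27) was the 1 of 6 NK-cell markers above, and NCAM1 (4.84 ± 0.069), KLRD1 (4.13 ± 0.083) and NKG7 (4.18 ± 0.069) were not. Of 12 monocyte and neutrophil markers S100A9 (5.78 ± 0.17) and CSF3R (5.76 ± 0.047) were above, and CD14 (3.77 ± 0.068), LYZ (3.72 ± 0.0020) and CSF1R (3.85 ± 0.00070) were not.

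**Figure D3:**
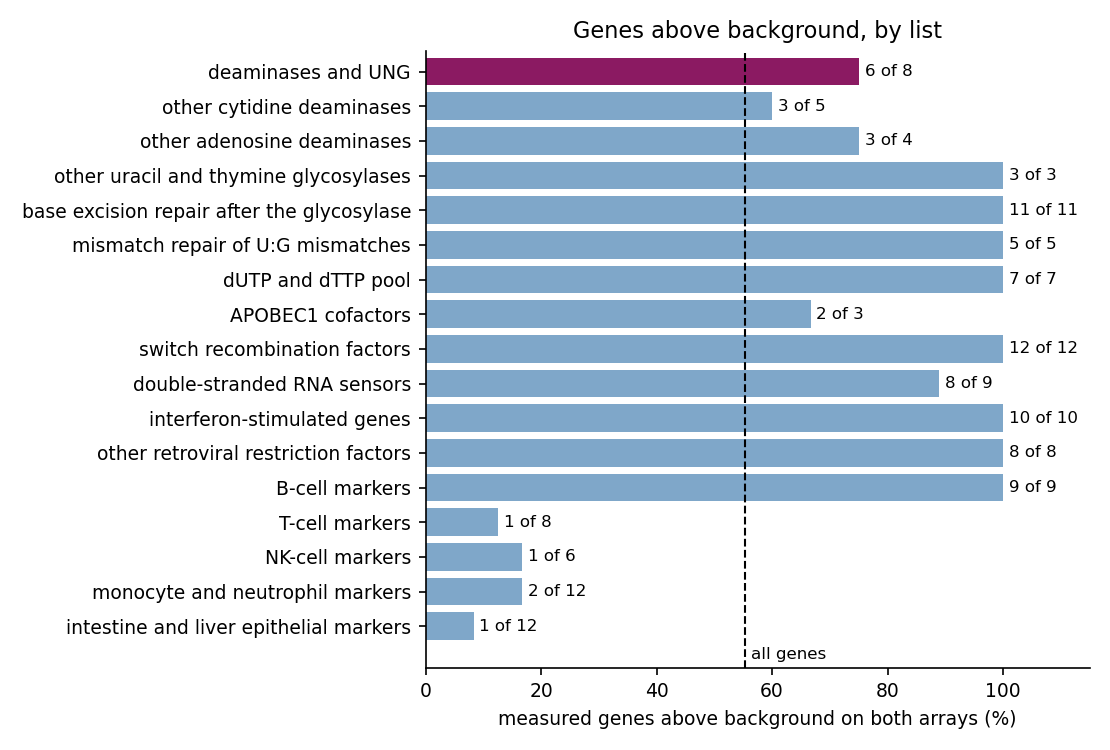
Percentage of measured genes above background on both arrays (horizontal axis) in each gene list, with the counts at the bar ends and the share of all genes (55.3%) as a dashed line. The deaminases and UNG stand at 6 of 8, the repair, interferon and B-cell lists at or near all of their genes, and the 4 lists of other cell types at 1 or 2 genes each.

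The replicates differed by between 0.02 and 0.19 on the log2 scale over the 11 probe sets (replicate 2 minus replicate 1, in absolute value), and the median over all probe sets was 0.11. In 7 of the 11 the signal was lower in replicate 2, as in 50.8% of all probe sets. Among the deaminases and UNG the largest difference was that of APOBEC3G 215579_at (0.19), while the brighter APOBEC3G probe set differed by -0.02. The difference of APOBEC3C was 0.16. When all probe sets were ordered by signal into 20 equal bins, 10 of the 11 lay between the 5th and the 95th percentile of the differences in their bin. The exception was APOBEC3C, whose bin ran from -0.14 to 0.12. With 2 arrays no test of these differences was possible.

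**Figure D4:**
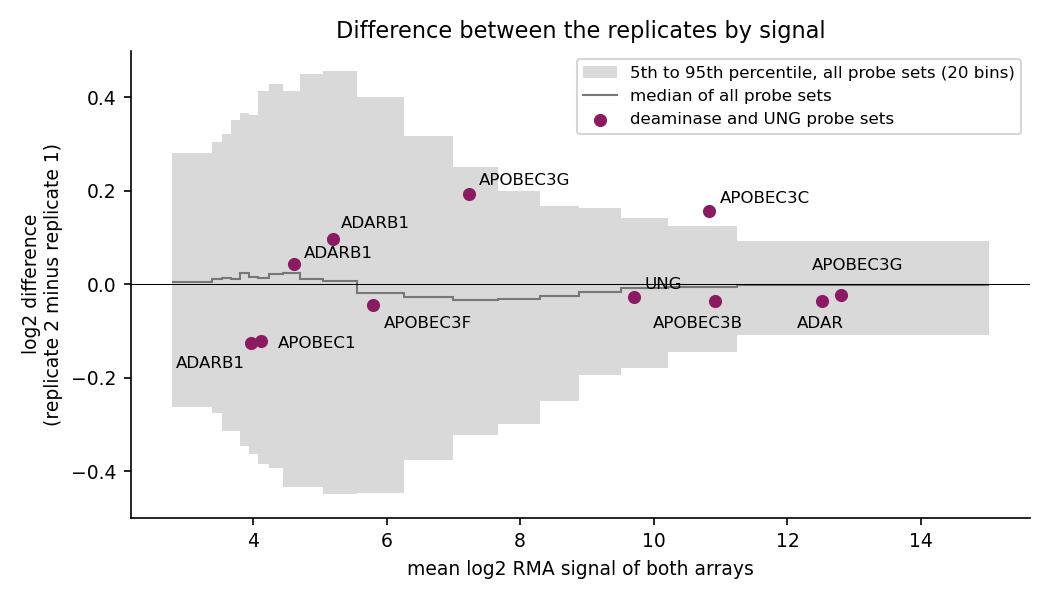
Difference between the replicates (vertical axis, log2, replicate 2 minus replicate 1) against mean log2 RMA signal (horizontal axis) for the 11 probe sets as points, with the 5th to 95th percentile of all probe sets in 20 bins of signal as a grey band. APOBEC3C, at 0.16, lies above the band, and the other 10 points lie within it.

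Over the measured genes that had a promoter window, the call went with the CpG content of the window. Genes without a window were left out, among them the chosen APOBEC3 genes. Where a gene had several windows, the one with the highest ratio of observed to expected CpG was taken. Genes with more windows thus had more chances of a high ratio, and the part of this in the shares was not tested. Of 9314 measured genes with a ratio of at least 0.6, 72.4% were above background, against 25.4% of 3781 genes with a lower ratio. ADAR and UNG (above background, highest ratios 0.92 and 0.84) and APOBEC1 (not above, 0.22) each had the more frequent call of their class. ADARB1 did not: its ratio of 1.03 fell in the class in which 79.2% of 1965 genes were above background. The genes share arrays and base composition, so these shares describe this cell line.

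**Figure D5:**
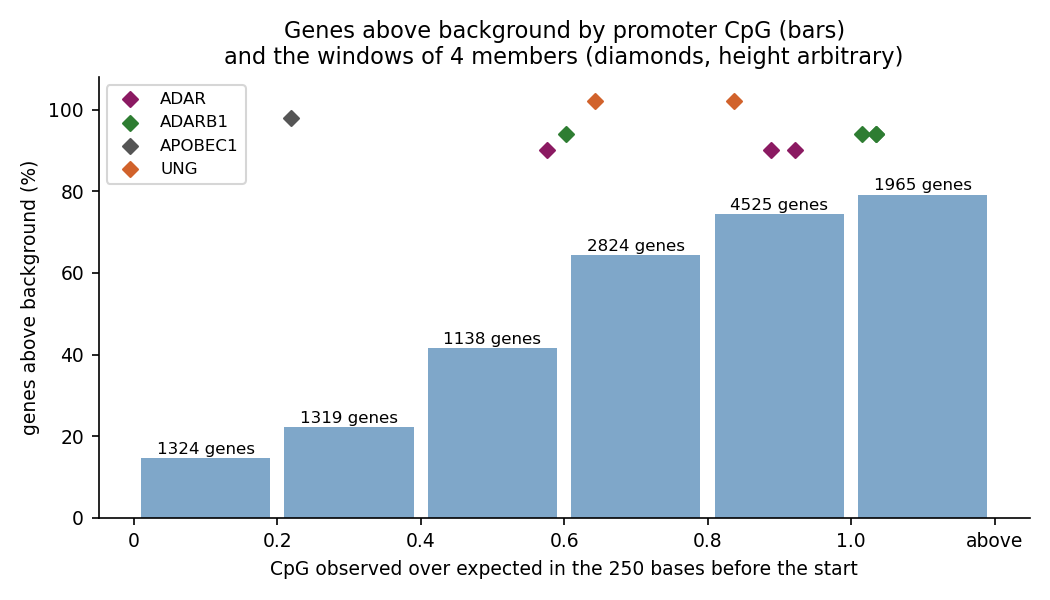
Percentage of genes above background (vertical axis, bars) by the ratio of observed to expected CpG in the 250 bases before the start (horizontal axis, bins 0.2 wide and a last bin of 1.0 and above), with the number of genes over each bar. Diamonds mark the windows of ADAR, ADARB1, APOBEC1 and UNG on the horizontal axis alone; APOBEC1 lies in a bin with 22.3% above background and the ADARB1 window with the highest ratio in one with 79.2%.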

How the data were processed

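Per the labels, total RNA of 2 samples of 1 cell line was hybridised to 1 array each. Each value that the authors deposited is an intensity of a probe set on a linear scale (6.29 to 33093), made with RMA per the submitters' processing notes (version not given in the sources used). RMA corrects background, equalises the arrays and summarises probes. Sorted by size, the log2 values of both arrays were within 0.14, so a change in total messenger RNA per cell would not show. RMA gives no detection call.

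Log2 values of 36289 probe sets were taken (Python 3.11.15, pandas 2.3.3). Of these 29493 had 1 gene symbol, 1407 several and 5389 none; symbols were updated by Entrez ID for 29461 from RefSeq (GRCh38.p14). A gene took its probe set with the highest mean. With 1 group there was no contrast, so no test was run, and the number of arrays limits precision. In a simulation of the call, 16716 genes were given well separated signals. There, 100% of those made above background and 3.20% of those made at background were called. The call for signals near the level, such as those of APOBEC3F, APOBEC3D and ADARB1, was not tested. Alternatives were other background percentiles, olfactory receptor genes as background, no _x_at or _s_at probe sets, the mean of all probe sets, a second quantile normalization, a loess curve removed, and each array alone.

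The genes and lists were chosen with earlier results of these data known. Named were all chosen genes, all measured genes of the short deaminase, glycosylase and cofactor lists, and elsewhere the first 3 measured plus up to 5 exceptions to the list's call. SUN2 and the other neighbours on chromosome 22 were named by position. No likeness between genes was computed, because 1 condition holds no pattern.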

Additional observations from a re-analysis of the deposited data

How the results depend on the processing

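The count of 6 deaminase and UNG genes above background is given here with the share of all genes in each setting. It was 7 with replicate 1 left out (57.8%) and 6 with replicate 2 left out (55.6%). It stayed at 6 after a second quantile normalization (55.4%) and with a loess curve removed (55.3%). With the mean of all probe sets it was also 6 (55%). At the 99th percentile it was 5 (41.4%), and at the 99th without MBP it was 6 (52.4%). The count was 7 at the 75th (66.2%), with olfactory receptor genes as background (56.2%) and at the 95th without MBP (57.4%). Without _x_at and _s_at probe sets, 2 of the 4 genes left to measure were above (APOBEC3F and APOBEC3G), as were 3 of their 5 probe sets. Of all genes left to measure 46% were above there. In that setting the counts were 0 of 3 for other cytidine deaminases, 1 of 1 for other glycosylases, 1 of 1 for APOBEC1 cofactors, 3 of 3 for other restriction factors and 0 of 7 for T-cell markers, with fewer genes measured in each list. APOBEC3D lost its call there, at levels of 5.43 and 5.44, and at the 99th percentile with or without MBP, where other cytidine deaminases gave 2 of 5. At the 99th percentile 5 of 11 deaminase and UNG probe sets were above background. T-cell markers gave 5 of 8 at the 75th percentile and 0 at the 99th, with olfactory receptor genes as background, when probe sets were averaged and at the 99th percentile without MBP. NK-cell markers gave 3 of 6 at the 75th percentile and 0 at the 99th with or without MBP. Monocyte and neutrophil markers gave 4 of 12 at the 75th, 0 at the 99th and 1 when probe sets were averaged, and epithelial markers 0 at the 99th. The cause of these shifts was not tested. Differences between replicates turned sign for APOBEC3G with the mean of its probe sets (0.086) and for ADARB1 without _x_at and _s_at probe sets (-0.13), and that of ADARB1 was 0.0051 with the mean of its probe sets. With that mean the level of APOBEC3G was 10.02 and that of ADARB1 4.59, and without _x_at and _s_at probe sets ADARB1 had 3.97. No paired analysis was possible because the labels give 1 group. The calls of APOBEC3F, APOBEC3D and ADARB1, whose signals lie near the level, each changed under at least 1 setting.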
